A study of Homo sapiens with 9 samples.

Results

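Y RNAs and a handful of other short RNAs made by RNA polymerase III were followed in NLF cells, an established human neuroblastoma cell line, after siRNA knockdown of the transcription factor gene TBX2 or of its antisense long noncoding RNA TBX2-AS1. The set was 8 genes by name: the Y RNA genes RNY1, RNY3 and RNY4, the 7SK RNA gene RN7SK, the 7SL RNA genes RN7SL1 and RN7SL2, the RNase MRP RNA gene RMRP and the RNase P RNA gene RPPH1. A gene ID could be assigned to 6 of the 8, out of 57757 gene IDs in the files, and all 6 were among the 18367 genes that passed the filter on low counts. RN7SL1 and RN7SL2 were not analysed here. The set was selected on the measured RNY1 values, which were low after TBX2-AS1 knockdown. For these 6 RNAs every difference that involves the TBX2-AS1 knockdown is therefore given as a description with no test. Tests are given for TBX2 knockdown and for genes outside the set. The tests for TBX2 knockdown share the siNTC libraries with the comparison that chose the set.

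There were 3 groups of 3 biological replicates, all of the same line with wild-type genotype and all harvested after 48 hours of siRNA treatment. The siNTC group received a non-targeting siRNA, the siTBX2 group an siRNA against TBX2 and the siTBX2-AS1 group an siRNA against TBX2-AS1. The number of distinct siRNA sequences per target was not given in the sources used here, so effects of the target and of one siRNA sequence cannot be told apart. Total counts ran from 31894280 to 51434090 per library, and 25097 to 26680 gene IDs had a count. TBX2 fell from 260 to 117 CPM in siTBX2 (log2 fold change -1.15, edgeR adjusted p = 0.00734) and TBX2-AS1 from 36.3 to 3.77 CPM in siTBX2-AS1 (-3.25, adjusted p = 0.0184). In siTBX2-AS1, TBX2 was at 209 CPM, below siNTC without overlap but not past the threshold (-0.32, edgeR adjusted p = 0.172). In siTBX2, TBX2-AS1 was at 35.6 CPM (-0.03, edgeR adjusted p = 0.989). The TBX2-AS1 call ended without siNTC replicate 1 (adjusted p = 0.0531), siNTC replicate 3 (0.0505) or siTBX2-AS1 replicate 1 (0.0651), with a log2 fold change of at most -2.79 in any fit that left out 1 library. Of 14 neuroblastoma markers, 10 to 12 had a group mean of at least 1 CPM, although TH, which encodes the first enzyme of catecholamine synthesis, was at 0 in all groups. Summed leukocyte markers were 1.49 to 4.78 CPM, summed epithelial markers 3.24 to 11.6 CPM and summed Schwann and melanocyte markers 12.6 to 23.8 CPM. Of these, SOX10, MLANA, CD3E, LYZ and KRT5 were at 0 in all groups. Fibroblast and endothelial markers summed to 867 to 1321 CPM in libraries of all groups. Of the 7 genes in that list, 4 or 5 had a group mean of at least 1 CPM, and CDH5 and KDR were at 0 in siNTC and siTBX2-AS1.

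RNA polymerase III makes short, abundant RNAs that work as scaffolds or catalysts. Y RNAs are folded into a stem and loop; their paired ends are bound by the Ro60 protein and their uridine tail by the La protein, and they have roles in RNA quality control and in the start of DNA replication. 7SK RNA holds the elongation kinase P-TEFb inactive together with HEXIM and LARP7 proteins, 7SL RNA is the core of the signal recognition particle, RMRP is the RNA of RNase MRP, which cuts ribosomal RNA precursors, and RPPH1 is the catalytic RNA of RNase P, which trims the 5′ ends of transfer RNAs. These genes have different promoters, some inside the gene and some, including those of the Y RNAs and 7SK, upstream of it.

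The 3 Y RNA genes lie together on chromosome 7 (GRCh38, GENCODE 29, not the build of the files). RNY1 spans chr7:148987136-148987248 on the minus strand and RNY4 spans chr7:148963315-148963410 on the plus strand, each a single-exon noncoding gene. Their transcript sequences are shown as the Y RNA with the largest difference between groups and a relative of it; capitals mark the start that both share, which belongs to the stem held by Ro60, and the terminal run of T at which polymerase III stops and which gives La its binding site.
RNY1: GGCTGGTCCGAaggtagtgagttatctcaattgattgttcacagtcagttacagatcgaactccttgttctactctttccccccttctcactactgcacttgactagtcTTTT
RNY4: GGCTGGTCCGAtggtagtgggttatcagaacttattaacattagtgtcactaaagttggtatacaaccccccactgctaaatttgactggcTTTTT

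These transcripts were 113 and 96 bases long and shared their first 11 bases. RNY1 and RNY3 were identical at 82 of 113 aligned positions (72.6%), RNY1 and RNY4 at 72 of 113 (63.7%) and RNY3 and RNY4 at 69 of 104 (66.4%). RNY1 and RNY3 were less alike than RNY3 and 3 of its copies (95.1% to 97.1% identical), which are described with it. RMRP lies at chr9:35657751-35658018 on the minus strand, RN7SK at chr6:52995621-52995948 on the plus strand and RPPH1 at chr14:20343075-20343407 on the minus strand. The rows taken as RN7SK and RPPH1 were matched by an annotated span that covers the gene on its strand, and the lengths implied by their counts and FPKM values, 330 and 332 bases, lie near the 328 and 333 bases of the 2 RNAs.

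Levels differed by more than 4 orders of magnitude between the 6 RNAs. On the per-length scale (FPKM, siNTC means), RN7SK was at 61417 and ranked 1 of the 30362 gene IDs above 0, RPPH1 was at 16838 and ranked 4, and RMRP was at 8378 and ranked 5. The Y RNAs lay far below, with RNY1 at 71.6 (rank 579), RNY3 at 57.4 (rank 746) and RNY4 at 2.13 (rank 11081). RNY1 and RNY3 neighbour each other in this order and their siNTC ranges overlapped, whereas the other neighbours in the order did not overlap. The library protocol in the labels names an mRNA kit with removal of ribosomal RNA, and its yield of RNAs this short was not tested, so the FPKM values compare amounts in the libraries.

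RNY1, the first of the Y RNAs, had its lowest levels in the siTBX2-AS1 libraries. It was at 18.4, 7.19 and 10.3 CPM in siNTC replicates 1, 2 and 3, at 10.7, 10.0 and 12.6 CPM in siTBX2, and at 3.21, 4.10 and 2.86 CPM in siTBX2-AS1. The 3 siTBX2-AS1 libraries lay below all 6 others, and the siNTC libraries spanned the siTBX2 ones. Group means were 11.99 ± 5.79, 11.1 ± 1.32 and 3.39 ± 0.642 CPM (SD, n = 3 each), resting on 310 to 939 counts per siNTC library, 419 to 573 per siTBX2 library and 92 to 166 per siTBX2-AS1 library. In bulk RNA, fewer cells that make an RNA and less of it per cell cannot be told apart.

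The values that chose the set are the RNY1 difference of siTBX2-AS1 from siNTC, with a log2 fold change of -1.82 (SE 0.33), or 28.3% of the siNTC mean. Against siTBX2 the RNY1 difference was -1.71 (SE 0.32), or 30.5%; that comparison shares the siTBX2-AS1 libraries. The level in siNTC replicate 1 was higher than in every other library, and without that library the siTBX2-AS1 difference from siNTC was -1.37. In siTBX2, RNY1 was 92.6% of its siNTC mean (-0.11, SE 0.31, edgeR adjusted p = 0.912), a log2 fold change that turned to 0.34 without siNTC replicate 1. This test reuses the siNTC values of RNY1 that took part in choosing the set, so it is not independent of that choice.

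RNY3, a Y RNA encoded 3280 bases from RNY1 on the other strand, was at 13.8, 4.29 and 7.94 CPM in siNTC replicates 1, 2 and 3. It was at 5.41, 4.68 and 6.10 CPM in siTBX2 and at 3.71, 4.40 and 3.91 CPM in siTBX2-AS1. The siNTC libraries again differed most among themselves, and siNTC replicate 2 lay below 1 siTBX2-AS1 library, so those groups overlapped; siTBX2 and siTBX2-AS1 did not overlap. The siTBX2-AS1 difference from siNTC was -1.11 (SE 0.36), or 46.3% of the siNTC mean, and -0.61 without siNTC replicate 1; against siTBX2 it was -0.43 (SE 0.36). In siTBX2 the difference from siNTC was -0.68 (SE 0.35, edgeR adjusted p = 0.394), and -0.18 without siNTC replicate 1.

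RNY4, the least abundant of the 3, was counted 21, 12 and 12 times in siNTC replicates, 13, 12 and 7 times after TBX2 knockdown, and 9, 10 and 5 times after TBX2-AS1 knockdown. In CPM these were 0.412, 0.278 and 0.272, then 0.276, 0.287 and 0.153, then 0.174, 0.253 and 0.155. The siTBX2-AS1 libraries lay just below the siNTC ones, while siTBX2 overlapped both. Log2 fold changes were -0.72 (SE 0.40) in siTBX2-AS1 and -0.43 (SE 0.39, edgeR adjusted p = 0.666) in siTBX2, each against siNTC.

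**Figure D1:**
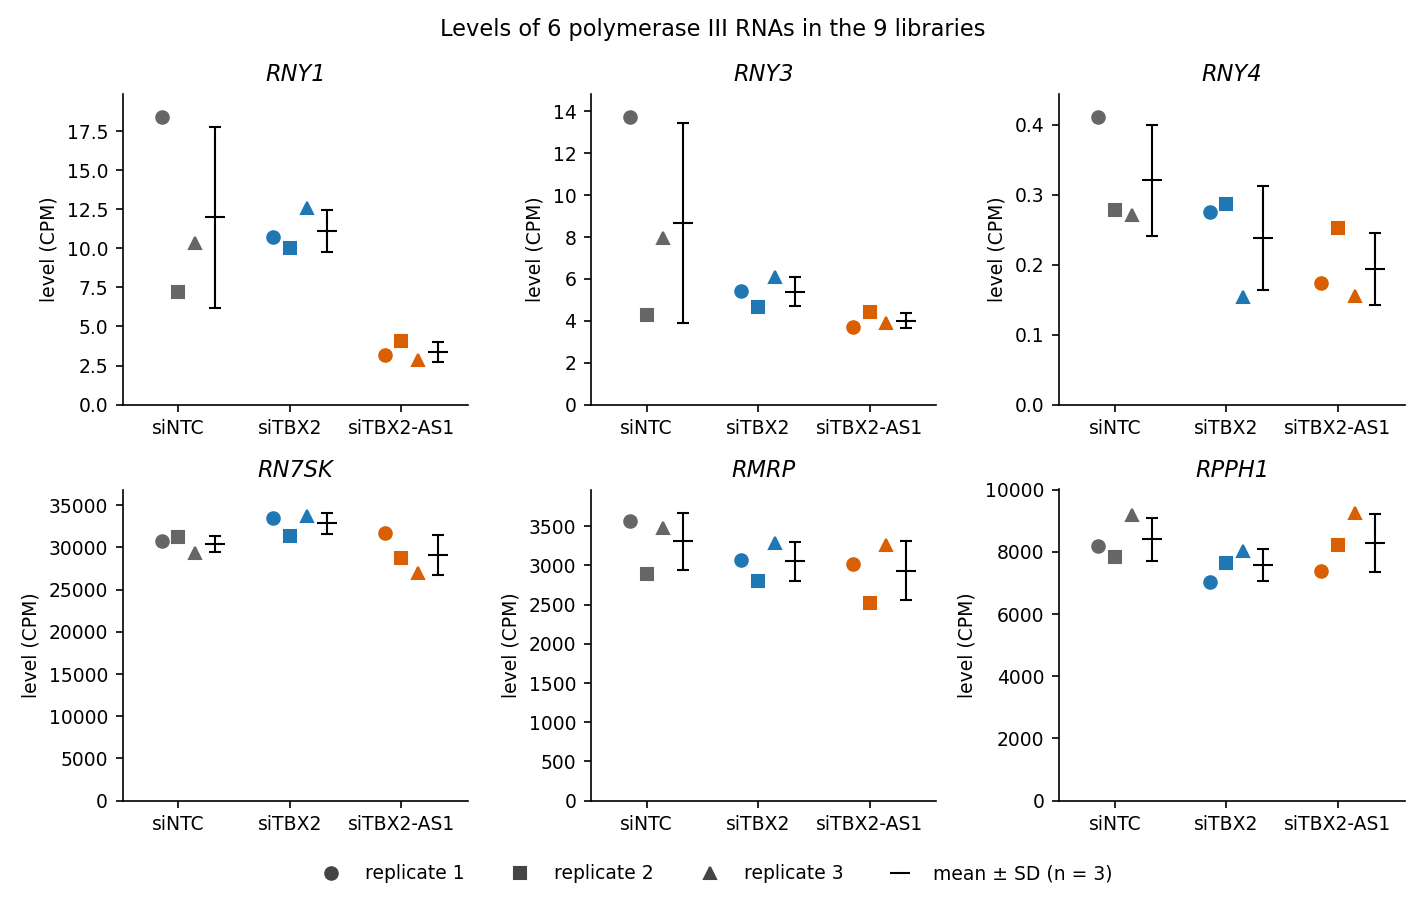
Level of each of 6 polymerase III RNAs (CPM, linear axis from 0) in every library, by siRNA group; shapes give the replicate number and black marks the mean ± SD of 3 libraries. RNY1 lies between 2.86 and 4.10 CPM in siTBX2-AS1, below the other 6 libraries, and siNTC replicate 1 is the highest library for RNY1, RNY3 and RNY4.

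The balance between the 2 abundant Y RNAs, read as RNY1 counts over RNY3 counts, differed between groups. The low RNY1 values in siTBX2-AS1 chose the set, so the low ratio there follows in part from that choice. siNTC and siTBX2 overlapped for RNY1 and for RNY3 alone, but not for the ratio. RNY1 counts divided by RNY3 counts were 1.34, 1.68 and 1.302 for the siNTC replicates, 1.98, 2.14 and 2.06 for siTBX2, and 0.865, 0.931 and 0.730 for siTBX2-AS1. The 3 groups did not overlap, and siNTC replicate 1 lay within the siNTC range. Of these 2 rows, RNY1 was the more counted in every siNTC and siTBX2 library and the less counted in every siTBX2-AS1 library. The RNY3 row held 35.5% to 38.9% of the counts of 4 near-identical rows, described below. Which of the 2 was the more counted therefore holds for these rows only. Group means were 1.44 ± 0.206, 2.06 ± 0.077 and 0.842 ± 0.102 (SD, n = 3 each). The ratio was looked at after the values were seen and is given with no test.

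RNY3 values are uncertain as those of 1 gene, since near-identical copies have rows of their own. Besides the 3 Y RNAs there were 776 rows of Y RNA copies and pseudogenes, of which 304 had at least 1 count and 9 passed the filter. The copy closest to RNY3, annotated as Y_RNA (ENSG00000207142.1), is identical to it at 99 of 102 positions.

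This copy had 118 to 659 counts per library and followed RNY3 closely, with Pearson's r of 0.999 on log2 CPM over the 9 libraries. A second Y_RNA copy (ENSG00000200494.1, 97 of 102 positions) had 48 to 276 counts and RNY3P1 (98 of 102) had 37 to 203, with r of 0.981 and 0.973. These correlations are descriptions over 9 libraries of 3 groups, and whether the rows share reads was not tested. RNY3 held 35.5% to 38.9% of the counts of the 4 rows in every library. Summed over the 4 rows, the log2 fold changes were close to those of RNY3 alone, -1.14 (SE 0.35) in siTBX2-AS1 and -0.64 (SE 0.35, edgeR adjusted p = 0.416) in siTBX2, each against siNTC. The copy closest to RNY1 (ENSG00000201573.1, 92 of 113 aligned positions) had 5 to 22 counts per library, far fewer than RNY1.

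**Figure D2:**
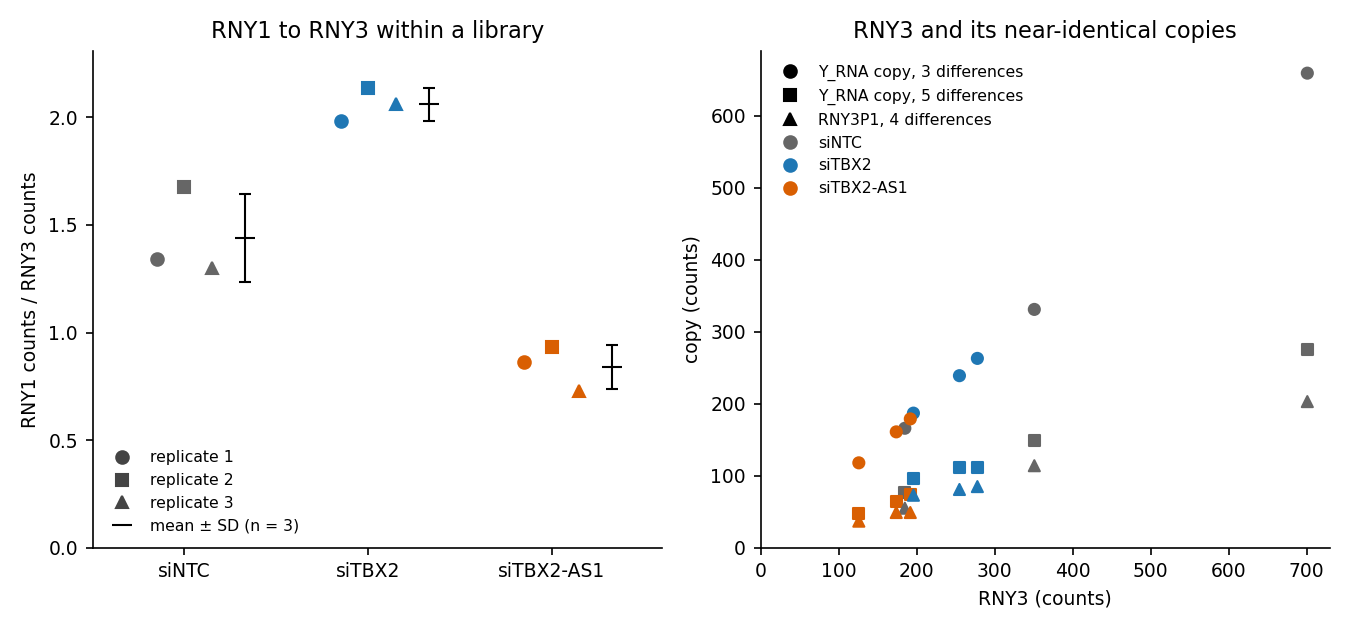
Left, RNY1 counts divided by counts of the RNY3 row alone in each library (axis from 0), with the mean ± SD of 3 libraries. The 3 groups do not overlap, and the low RNY1 values in siTBX2-AS1 are those that chose the set. Right, counts of the 3 near-identical copies against RNY3 counts in the 9 libraries, coloured by group; the closest copy follows RNY3 from 118 counts to 659.

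7SK RNA, the scaffold that holds P-TEFb inactive, took 2.73% to 3.28% of all counts of a library. It was at 30700, 31242 and 29360 CPM in siNTC, 33479, 31339 and 33678 CPM in siTBX2 and 31661, 28714 and 26987 CPM in siTBX2-AS1. The siTBX2 libraries lay just above the siNTC ones without overlap, and siTBX2-AS1 overlapped both. The log2 fold change was 0.11 (SE 0.06, edgeR adjusted p = 0.441) in siTBX2 and -0.06 (SE 0.06) in siTBX2-AS1, each against siNTC, and -0.17 (SE 0.06) between the knockdowns.

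RMRP, the RNA of RNase MRP, was at 3562, 2888 and 3472 CPM in siNTC, 3066, 2795 and 3286 CPM in siTBX2 and 3021, 2520 and 3260 CPM in siTBX2-AS1. All 3 groups overlapped, and replicate 2 was the lowest library of each. Its log2 fold changes were -0.12 (SE 0.11, edgeR adjusted p = 0.696) in siTBX2 and -0.17 (SE 0.11) in siTBX2-AS1, each against siNTC.

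RPPH1, the RNA of RNase P, was at 8182, 7852 and 9172 CPM in siNTC, 7030, 7645 and 8042 CPM in siTBX2 and 7386, 8211 and 9267 CPM in siTBX2-AS1. The groups overlapped here too, and replicate 3 was the highest library of each. Its log2 fold changes were -0.15 (SE 0.09, edgeR adjusted p = 0.495) in siTBX2 and -0.02 (SE 0.09) in siTBX2-AS1, each against siNTC. The standard errors of the 3 abundant RNAs were 0.06 to 0.11, against 0.31 to 0.41 for the Y RNAs, so smaller differences could be seen in the former.

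Across the whole table, 1.61% of the 18367 tested genes were called in siTBX2 against siNTC and 22.8% had groups that did not overlap; of the 6 RNAs 0 were called by edgeR, 0 had an unadjusted p under 0.05, 0 were called by DESeq2, and 1, RN7SK, had groups that did not overlap. In siTBX2-AS1 against siNTC 4.57% of genes were called and 24.0% did not overlap, and in siTBX2-AS1 against siTBX2 5.53% and 26.7%. The same fit counted 1 of the 6, RNY1, in each of these 2 comparisons, and groups did not overlap for RNY1 and RNY4 in the former and for RNY1 and RNY3 in the latter. Both comparisons use the libraries on which the set was selected, so these counts are no test and nothing is read from them. Median log2 fold changes of the 6 were -0.13, -0.45 and -0.23 in the 3 comparisons, in the order given, against 0.00, 0.01 and 0.01 over all tested genes.

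**Figure D3:**
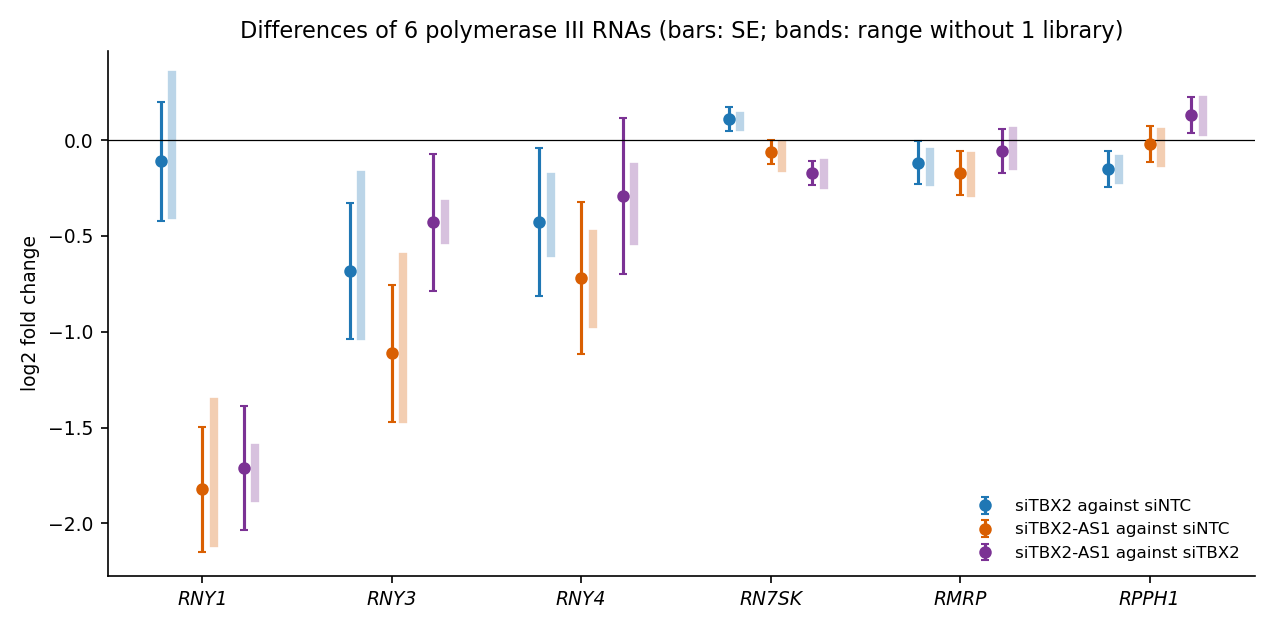
Log2 fold change of each RNA in the 3 comparisons (points, with SE bars from edgeR) and, as pale bands beside them, the lowest and highest value in 9 fits that each left out 1 library. RNY1 stays between -2.10 and -1.37 in siTBX2-AS1 against siNTC, and RN7SK, RMRP and RPPH1 stay between -0.27 and 0.21 in all 3 comparisons.

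siNTC replicate 1 stood high for some other short RNAs, though not for all sets. It was the highest siNTC library for 4 of the 6 RNAs (66.7%), for 33 of 57 tested small nuclear RNA genes (57.9%) and for 36 of 78 tested genes of the annotation class that holds the Y RNAs (46.2%), for 16 of 31 short polymerase II RNAs (51.6%) and for 4 of 11 other polymerase III RNAs (36.4%), against 35.1% of all tested genes. Its median ratio to the mean of the other 2 siNTC libraries was 1.31 for the 6 RNAs, 1.27 for the small nuclear RNAs, 1.06 for the annotation class of the Y RNAs, 1.12 for the short polymerase II RNAs, 1.27 for the other polymerase III RNAs and 0.995 for all tested genes. The part of this library in the Y RNA differences was measured by leaving it out, which gave the values -1.37 for RNY1 and -0.61 for RNY3 above.

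Other polymerase III RNAs were read from a fixed list of 21 genes, among them the vault RNAs, U6 and U6atac small nuclear RNAs, 5S RNA and BC200, of which 11 were tested. By edgeR 0 of 11 were called in any of the 3 comparisons, 0 had an unadjusted p under 0.05 and 0 were called by DESeq2. Their median log2 fold changes were 0.01 in siTBX2, -0.40 in siTBX2-AS1 and -0.38 between the knockdowns, against 0.00, 0.01 and 0.01 over all tested genes. Of the 11, 6, 1 and 0 had a positive log2 fold change in the 3 comparisons. BCYRN1, the gene of BC200, was the lowest in siTBX2-AS1, at -1.28 against siNTC and -1.17 against siTBX2. It was named as the extreme of the list after the values were seen, and it was not called by edgeR, nor was its unadjusted p under 0.05. VTRNA1-3, a vault RNA, was at 5.90 ± 0.667, 5.94 ± 0.0874 and 5.16 ± 0.113 CPM in siNTC, siTBX2 and siTBX2-AS1 (SD, n = 3), and RNU6ATAC, of the minor spliceosome, was at 3.99 ± 1.24, 3.63 ± 0.396 and 2.79 ± 0.369 CPM (SD, n = 3). These 2 were picked after their values were seen. Of 31 tested short RNAs made by polymerase II, such as U1, U2 and U3, 0 were called by edgeR in any comparison, with medians of 0.03, -0.11 and -0.14. DESeq2 called 0, 0 and 1, and 0, 1 and 2 had an unadjusted p under 0.05. RNU4ATAC, named after its values were seen, was the lowest of these in siTBX2-AS1, at -4.87 against siNTC and -6.07 against siTBX2. It was the highest in siTBX2 against siNTC, at 1.21.

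Among the protein partners of Y RNAs, RO60, SSB and HNRNPK had all 3 siTBX2-AS1 libraries below the other 6, RO60 by the most. For SSB the gap was narrow, from at most 196 CPM in siTBX2-AS1 to at least 199 CPM in siNTC. In this list, siTBX2-AS1 did not overlap siNTC for 4 of 15 tested genes, nor siTBX2 for 5. Over all tested genes these shares were 24.0% and 26.7%. RO60, which encodes the Ro60 protein that binds the Y RNA stem, was at 195, 152 and 168 CPM in siNTC, 220, 235 and 194 CPM in siTBX2 and 50.9, 112 and 44.3 CPM in siTBX2-AS1. RO60 fell against siTBX2 (-1.65, SE 0.32, edgeR adjusted p = 0.0243). Against siNTC it missed the threshold (-1.31, SE 0.32, adjusted p = 0.0597). It passed in 7 of 20 alternatives, among them the replicate number as a block (-1.41, adjusted p = 0.0463). With only the 2 groups compared it missed again (adjusted p = 0.131).

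Among the siTBX2-AS1 libraries, replicate 2 stood above the other 2 for RO60. Without it the difference from siNTC was -1.86 (edgeR adjusted p = 0.00168). Of 9 fits that left out 1 library, only this 1 passed against siNTC, with adjusted p up to 0.178 in the others. Without siTBX2-AS1 replicate 2 the difference from siTBX2 was -2.18 (0.00124). The call against siTBX2 also stood without any 1 siNTC library, and ended without any 1 siTBX2 library or without siTBX2-AS1 replicate 1 or 3, with adjusted p up to 0.0908. In siTBX2, RO60 was at 216 ± 20.8 CPM against 171 ± 21.8 in siNTC (SD, n = 3; 0.33, SE 0.31, adjusted p = 0.681).

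Of the 15 tested genes of 16 proteins that bind or process Y RNAs, 0 were called by edgeR in siTBX2 against siNTC (2 at an unadjusted p under 0.05, 0 by DESeq2), 0 in siTBX2-AS1 against siNTC (2 unadjusted, 1 by DESeq2), and 3 fell in siTBX2-AS1 against siTBX2. Besides RO60 these were SSB, the gene of La, which went from 239 ± 14.2 CPM in siTBX2 to 186 ± 14.97 (SD, n = 3; -0.36, SE 0.08, edgeR adjusted p = 0.0373), and HNRNPK, which encodes an RNA-binding protein found on some Y RNAs (-0.31, SE 0.06, adjusted p = 0.0310). Both calls were marginal: SSB kept it in 1 of 9 fits that left out 1 library (without siNTC replicate 3, adjusted p = 0.0499) and HNRNPK in 2 (without siNTC replicate 1, 0.0453, and siTBX2 replicate 2, 0.0420), with adjusted p up to 0.119 and 0.109 in the others. The list's medians were 0.14, -0.03 and -0.08.

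**Figure D4:**
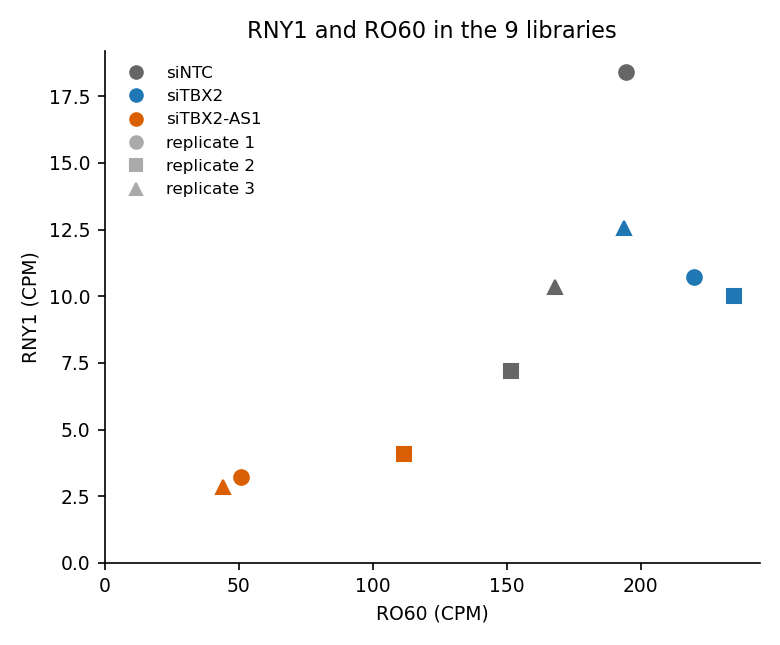
RNY1 level against RO60 level (CPM, both axes from 0) in the 9 libraries, coloured by group with shapes for replicate numbers; the pair was plotted after the values were seen. The siTBX2-AS1 libraries lie lowest on both axes, at 44.3 to 112 CPM for RO60 and 2.86 to 4.10 CPM for RNY1.

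The proteins of the 7SK complex and P-TEFb, which act with RN7SK, showed 0 calls by the main edgeR fit among 15 tested genes in all 3 comparisons. An unadjusted p under 0.05 was found for 1, 1 and 5, and DESeq2 called 0, 0 and 2. With the replicate number as a block, 1 rose and 3 fell in siTBX2-AS1 against siTBX2, and 0 were called in either comparison with siNTC. LARP7, whose protein protects the 7SK end, had log2 fold changes of 0.23 in siTBX2 and -0.08 in siTBX2-AS1 (SE 0.09 each, edgeR adjusted p = 0.277 and 0.718). MEPCE, the 7SK capping enzyme, had 0.33 and 0.04 (SE 0.18 each, adjusted p = 0.426 and 0.936). HEXIM1, the inhibitor subunit, had -0.02 and 0.11 (SE 0.13 each, adjusted p = 0.968 and 0.751). List medians were 0.10, -0.08 and -0.09.

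The signal recognition particle, whose RNA is 7SL, had 2 genes that changed in opposite directions in siTBX2-AS1, of 11 tested. SRPRA, which encodes the alpha subunit of the particle's receptor on the endoplasmic reticulum, rose from 58.7 ± 3.04 CPM in siNTC to 140 ± 14.5 (SD, n = 3; 1.25, SE 0.10, edgeR adjusted p = 0.000722), and was at 78.7 ± 6.76 CPM in siTBX2. SRP9, which encodes a subunit bound to the Alu end of 7SL, fell from 121 ± 23.8 to 67.7 ± 5.50 CPM (-0.84, SE 0.14, adjusted p = 0.0125). Both also differed from siTBX2, SRPRA by 0.83 (adjusted p = 0.00301) and SRP9 by -0.98 (adjusted p = 0.00567). The SRPRA calls stood in all 9 fits that left out 1 library; the SRP9 call against siNTC ended narrowly without siTBX2-AS1 replicate 1 (0.0534) or 2 (0.0521). SRP54, the gene of the subunit that binds signal peptides, was not called (0.10 and -0.17, SE 0.08, adjusted p = 0.608 and 0.308), 0 of the 11 genes were called by edgeR in siTBX2 (1 unadjusted, 1 by DESeq2), and the medians were 0.14, 0.00 and -0.16.

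The shared proteins of RNase P and RNase MRP, the partners of RPPH1 and RMRP, had 1 gene called of 12 tested. POP1, their largest subunit, rose from 97.6 ± 2.96 CPM in siNTC to 135 ± 5.71 in siTBX2 (SD, n = 3; 0.47, SE 0.07, edgeR adjusted p = 0.0226). It was at 107 ± 5.19 CPM in siTBX2-AS1, lower than in siTBX2 (-0.33, SE 0.07, adjusted p = 0.0290). The siTBX2 call was kept without siTBX2-AS1 replicate 1, 2 or 3 and ended without any 1 siNTC or siTBX2 library (adjusted p up to 0.0925); the call between the knockdowns was kept without any 1 siNTC library and ended without any 1 library of the other 2 groups (up to 0.106). In siTBX2-AS1 against siNTC 0 of the 12 were called by edgeR, 0 had an unadjusted p under 0.05 and 0 were called by DESeq2. List medians were 0.15, -0.01 and -0.13.

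**Figure D5:**
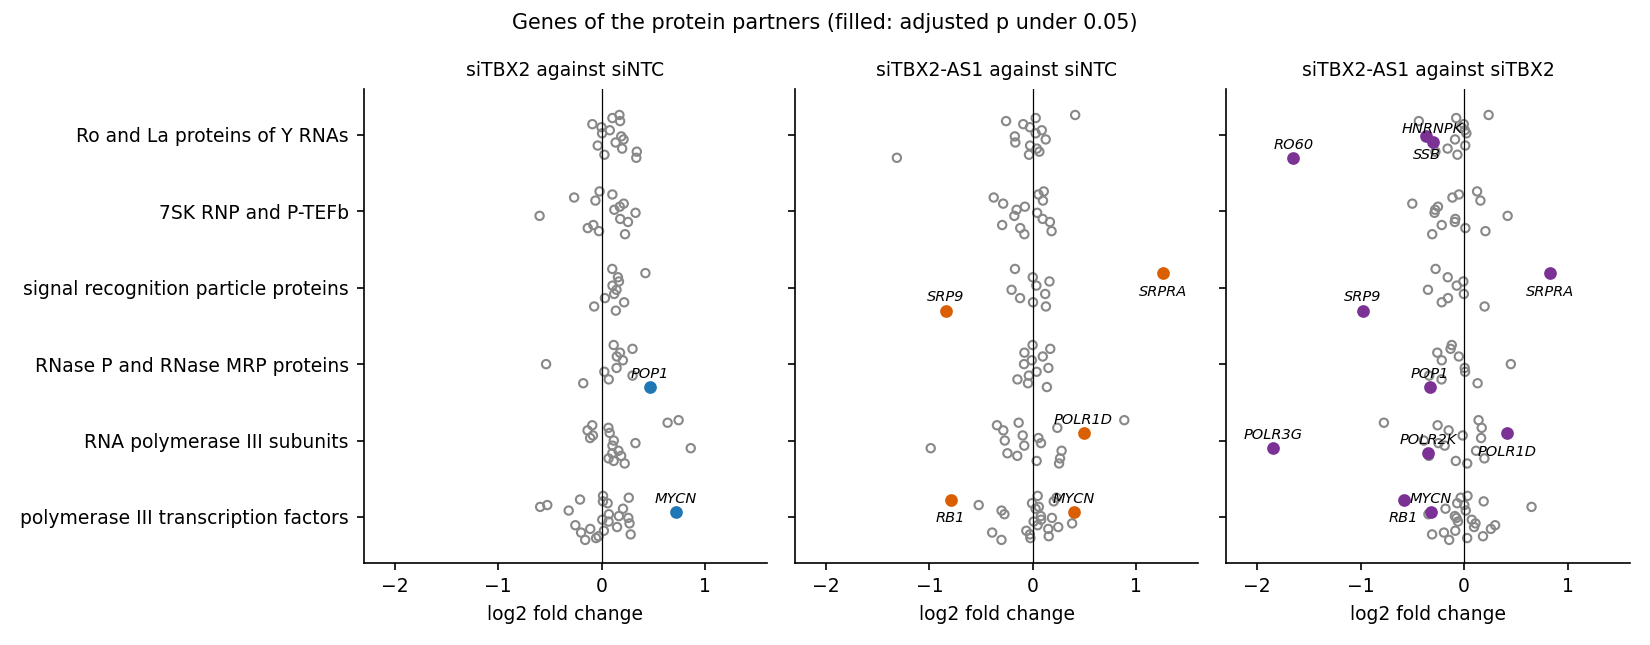
Log2 fold change of every tested gene in 6 lists of proteins that act with or make polymerase III RNAs, 1 panel per comparison; filled points passed the threshold of 0.05 on the edgeR adjusted p and are named. RO60 and POLR3G lie lowest in siTBX2-AS1 against siTBX2, at -1.65 and -1.85, and SRPRA lies highest in siTBX2-AS1 against siNTC, at 1.25.

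Of 18 subunit genes of the polymerase, 0 were called by edgeR in siTBX2 against siNTC, 1 in siTBX2-AS1 against siNTC and 3 between the knockdowns. At an unadjusted p under 0.05 there were 3, 8 and 6, by DESeq2 0, 2 and 4, and groups did not overlap for 6, 11 and 6 of the 18, against 22.8%, 24.0% and 26.7% of all tested genes. POLR3F, named after its values were seen, had the highest difference of siTBX2-AS1 from siNTC in the list and was not called (0.88, SE 0.35, edgeR adjusted p = 0.221). POLR1D, a subunit shared by polymerases I and III, rose in siTBX2-AS1 from 61.2 ± 3.74 to 86.0 ± 3.73 CPM (SD, n = 3; 0.49, SE 0.08, edgeR adjusted p = 0.0104) in all 9 fits that left out 1 library, with adjusted p up to 0.0495. Against siTBX2, POLR1D was higher (0.41, adjusted p = 0.0192) and POLR3G and POLR2K lower.

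POLR3G, which encodes the subunit that replaces its paralog POLR3GL in dividing and undifferentiated cells, was at 24.4 ± 14.4 CPM in siNTC, 44.4 ± 9.72 in siTBX2 and 12.3 ± 0.669 in siTBX2-AS1 (SD, n = 3). The difference between the knockdowns was -1.85 (SE 0.37, edgeR adjusted p = 0.0270), and neither knockdown passed against siNTC (0.86, adjusted p = 0.291, and -0.99, adjusted p = 0.192). siNTC replicate 2 was the highest siNTC library for POLR3G, and without it these values were 1.43 (adjusted p = 0.0405) and -0.42 (adjusted p = 0.401). The POLR3G call was kept without any 1 siNTC library and ended without any 1 library of the other groups (adjusted p up to 0.0950). POLR2K, a subunit of all 3 polymerases, differed by -0.35 (SE 0.08, adjusted p = 0.0368), kept in 2 of the 9 fits (without siNTC replicate 1, 0.0229, or 3, 0.0410), and the POLR1D call between the knockdowns was kept in 4 (without any 1 siNTC library or siTBX2-AS1 replicate 2, adjusted p up to 0.0742 in the others). Subunit medians were 0.11, -0.02 and -0.12.

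Among 25 transcription factors that act on polymerase III genes, 2 were called against siNTC. MYCN, a driver of neuroblastoma of the MYC family, whose proteins raise polymerase III output, rose from 263 ± 26.9 CPM to 433 ± 15.2 in siTBX2 (SD, n = 3; 0.72, SE 0.08, edgeR adjusted p = 0.00849) and to 346 ± 2.35 in siTBX2-AS1 (0.39, SE 0.08, adjusted p = 0.0258). RB1, the retinoblastoma gene, whose protein restrains polymerase III, fell in siTBX2-AS1 from 178 ± 5.12 to 103 ± 8.74 CPM (-0.79, SE 0.08, adjusted p = 0.00114) and was lower there than in siTBX2 (-0.58, adjusted p = 0.00381).

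The RB1 calls and the MYCN call in siTBX2 stood in all 9 fits that left out 1 library. The MYCN call in siTBX2-AS1 against siNTC was kept in 3 of them (without siNTC replicate 1 or 2 or siTBX2 replicate 3) and its difference between the knockdowns (-0.32, edgeR adjusted p = 0.0485) in 2 (without siNTC replicate 1 or 2), with adjusted p up to 0.0956 and 0.142. BRF2 and SNAPC1, which serve the upstream promoters that 7SK and the Y RNAs use, had log2 fold changes of 0.25 (SE 0.22, adjusted p = 0.635) and 0.15 (SE 0.19, adjusted p = 0.751) in siTBX2-AS1. MAF1, the general repressor of polymerase III, had -0.02 (SE 0.13, adjusted p = 0.949). The list's medians were 0.01, 0.05 and -0.03. Over the 6 lists together, 2, 5 and 11 of 96 tested genes were called in the 3 comparisons. Their shares were 2.08%, 5.21% and 11.5%, against 1.61%, 4.57% and 5.53% of all tested genes. With the replicate number as a block, 8 were called in siTBX2-AS1 against siNTC. The count between the knockdowns also rose with the block and is given below with the processing.

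The nearest tested genes on either side of the 6 loci overlapped none of them. On chromosome 7, PDIA4, a protein folding enzyme of the endoplasmic reticulum encoded 15814 bases beyond RNY1, was higher than in siNTC in both knockdowns (0.47 in siTBX2, SE 0.09, edgeR adjusted p = 0.0497, and 0.48 in siTBX2-AS1, SE 0.09, adjusted p = 0.0236). These calls ended in all 9 fits that left out 1 library and in 6 of 9 (all but those without 1 siTBX2 library), with adjusted p up to 0.184 and 0.0914. EZH2, a polycomb methyltransferase gene 78994 bases from RNY4, was not called (-0.17 and 0.04, SE 0.06 each, adjusted p = 0.200 and 0.812).

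At the other loci, GSTA4 (243 bases from RN7SK), CILK1, TESK1, CCDC107 (272 bases from RMRP) and PARP2 (175 bases from RPPH1) were not called in any comparison, with log2 fold changes from -0.40 to 0.63. CCNB1IP1, 9763 bases from RPPH1, was called in siTBX2-AS1 against siNTC (0.35, SE 0.08, edgeR adjusted p = 0.0473) and lost the call in all 9 fits that left out 1 library (adjusted p up to 0.160).

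By Pearson's r of log2 CPM over the 9 libraries, the tested genes with the pattern most like RNY1 were DEPTOR (0.976), SNX17 (0.970), RAC1P2 (0.966), PSMA7 (0.964) and H1-4 (0.957). Among the other RNAs of the set, r with RNY1 was 0.803 for RNY3, 0.616 for RNY4, 0.558 for RN7SK, 0.450 for RMRP and -0.17 for RPPH1. These are descriptions over 9 libraries of 3 groups that share depth and group differences. In siTBX2-AS1 against siNTC their log2 fold changes were -0.53, -0.62, -0.39, -0.17 and -0.41, in the order named (SE 0.06 to 0.12). They were picked for resembling RNY1, so these differences follow from the choice and are given with no test. DEPTOR encodes an mTOR inhibitor, SNX17 a sorting nexin, PSMA7 a proteasome subunit and H1-4 a linker histone, and RAC1P2 is a pseudogene.

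Short motifs were searched on both strands of the 6 transcripts. AGGTGTG, the core of the T-box binding site, was in 0 of the 6, and in 4.58% of 13759 annotated transcripts of 90 to 340 bases. The TATA core TATAA was in 0 of the 6 (18.7% of those transcripts), as was the octamer motif ATGCAAAT (3.22%). The E-box, CACGTG, was in RMRP only (2.83% of the transcripts). 3 words tied to the knockdowns in earlier work on these data were in 0 of the 6: TTAAACT (2.77% of the transcripts), then CAGAATG (4.16%), then AGACGTA (0.422%). The absence of a word says only that these letters are not in the transcript, and promoters of the 6 genes were not searched here.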

How the data were processed

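RNA of 9 NLF cultures was sequenced by the authors. Reads were aligned with STAR 2.4.2a and quantified with StringTie 1.3.3 on hg19, per the submitters' processing notes; the annotation and the counting's strand setting are not given in the sources used here, so antisense reads cannot be set apart. The deposited tables hold an expected count and an FPKM value per gene ID, per the file headers, both made by the authors; counts were whole and were used as deposited. Of 57757 IDs, 39497 were named by a table of gene names and 12789 more by GENCODE 29, whose GRCh38 positions are quoted; sequences are from the GENCODE 29 transcripts, and those of RNY3 and its copies are not reported here.

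Differences were tested with edgeR 4.0.16 (quasi-likelihood, robust, TMM, filterByExpr, all 9 libraries, group only; R 4.3.3), with Benjamini-Hochberg adjustment over 18367 genes and a threshold of 0.05; "called" means past it. CPM are TMM-scaled. DESeq2 1.42.0, limma 3.58.1 on log2(FPKM + 0.1) and log2(FPKM + 1), other scalings and filters, a replicate block and fits without each library were alternatives. On simulated counts for siTBX2-AS1 against siNTC (18367 genes), 82 of 200 genes changed 2-fold and 168 of 200 changed 4-fold were recovered. Replicates differed beyond counting noise (chi-square per gene 46.8 to 73.3). Same-numbered libraries deviated together in siTBX2 against siNTC (r 0.136 to 0.241), siTBX2-AS1 against siNTC (0.104 to 0.243) and siTBX2-AS1 against siTBX2 (0.0728 to 0.219). Libraries of other numbers had r of -0.219 to -0.00781, -0.187 to -0.00406 and -0.163 to 0.0238. This pairing was read from the data, since no label says what a number marks. The p-values otherwise measure the spread between these cultures.

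The 8 RNAs and all gene lists were chosen with earlier results of these data known. Named genes are the members, the targets, 10 partner genes always named (RO60, SSB, LARP7, MEPCE, HEXIM1, SRP54, POP1, BRF2, SNAPC1, MAF1), up to 4 called genes per list and comparison, nearest tested neighbours, the 5 genes most correlated with RNY1 and the 5 most counted Y RNA copies.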

Additional observations from a re-analysis of the deposited data

How the results depend on the processing

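For the 6 RNAs, 20 alternatives were run. Those that reversed a direction each left out 1 library: RNY1 in siTBX2 against siNTC ran from -0.39 to 0.34 (without siNTC replicate 1), RPPH1 in siTBX2-AS1 against siNTC from -0.12 to 0.04 (0.03 without siNTC replicate 3, 0.041 without siTBX2-AS1 replicate 1), and RMRP between the knockdowns from -0.14 to 0.05 (0.0011 without siTBX2 replicate 3, 0.045 without siTBX2-AS1 replicate 2). RNY4 had no DESeq2 adjusted p. Members called (0, 1 and 1) became 2 with DESeq2, 0 with the 2 groups alone, 0 with unfiltered FPKM and 0 to 2 without 1 library in siTBX2-AS1 against siNTC, and 0 with unfiltered FPKM and 0 to 1 without 1 library between the knockdowns.

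Genes called over the whole table (295, 840 and 1015, in the order siTBX2 against siNTC, siTBX2-AS1 against siNTC, siTBX2-AS1 against siTBX2) were 1200, 1802 and 2153 with DESeq2, 30, 314 and 393 with limma on log2(FPKM + 0.1), 31, 306 and 386 with FPKM + 1, and 17, 169 and 227 with FPKM unfiltered. They were 52 and 461 in the first 2 with only the groups compared, 184 in the first with no filter, and 44 to 177, 402 to 654 and 469 to 918 without 1 library. Partner genes called (2, 5 and 11) were 4 in the first and 17 in the last with DESeq2, 1, 3 and 6 with FPKM + 0.1, 1, 3 and 6 with FPKM + 1, 0, 3 and 4 unfiltered, 1 in the first and 7 in the last with 2 groups, 6 in the last with no filter, and 1 to 2, 3 to 6 and 3 to 10 without 1 library.

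The replicate block gave 873, 1741 and 2084 genes. For partner genes it gave 8 in siTBX2-AS1 against siNTC and 21 between the knockdowns. Between the knockdowns, same-numbered libraries correlated at 0.0728 to 0.219 and libraries of other numbers at -0.163 to 0.0238. With the block RNY1 was -1.75 against siNTC and -1.70 against siTBX2, and no member's call changed. Between the knockdowns the block called 4 of the 15 genes of the 7SK complex and P-TEFb (1 rose, 3 fell) in place of 0. RNY4 had 5 to 21 counts per library.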

Other observations

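RN7SL1 and RN7SL2 had no matched row, but 2 annotated 7SL copies, picked after their values were seen, had many counts. RN7SL5P, identical to RN7SL1 at 277 of 324 aligned positions (85.5%), was at 3522 ± 894, 3683 ± 181 and 3747 ± 856 CPM in siNTC, siTBX2 and siTBX2-AS1 (SD, n = 3). RN7SL4P, identical at 260 of 302 (86.1%), was at 571 ± 124, 513 ± 72.8 and 432 ± 39.9 CPM (SD, n = 3). How many of these counts come from reads of 7SL itself was not tested. RN7SL674P, a rarer copy, was at 4.70 ± 3.65 CPM in siNTC (SD, n = 3). Relative to the mean this was the widest siNTC spread of the 3 copies. The SD of its FPKM was 76.5% of the mean, against 26.9% for RN7SL5P and 23.8% for RN7SL4P.

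By annotation class, few short RNA genes were called by edgeR, where 1.61%, 4.57% and 5.53% of all tested genes were called in the 3 comparisons. In the class that holds the Y RNAs, with 78 tested genes, the only call was RNY1, on which the set was selected. In siTBX2-AS1 against siNTC the median log2 fold change of that class was -0.39. It was -0.23 for small nuclear and -0.01 for small nucleolar RNA genes, against 0.01 over all tested genes. Of 137 tested small nucleolar RNA genes, SNORD58B was the only call against siNTC, from 11.6 ± 0.374 to 15.9 ± 0.903 CPM in siTBX2-AS1 (SD, n = 3; 0.46, adjusted p = 0.0473), a call made in 6 of 20 alternatives (adjusted p up to 0.165). Of 57 small nuclear RNA genes, RNVU1-23, a variant U1 gene, was the only call, at 0.799 ± 0.0953 CPM in siTBX2 and 0.309 ± 0.107 in siTBX2-AS1 (SD, n = 3; -1.34, adjusted p = 0.0460), a call made in 6 of 19 alternatives (adjusted p up to 0.129).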
